A study of Homo sapiens with 6 samples.

Results

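The genes described here are 10 neural adhesion molecules of the immunoglobulin superfamily, chosen by symbol from the 25369 genes counted in each sample. They are L1CAM, NRCAM, CHL1 and NFASC of the L1 family, the contactins CNTN1 and CNTN6, the sidekicks SDK1 and SDK2, and NCAM1 and ALCAM. Poly(A) RNA was sequenced from Caki2, a clear cell renal cell carcinoma line that lacks PBRM1 protein. In 3 replicates the cells carried an empty doxycycline-inducible lentiviral vector (Caki2+Vector), and in the other 3 the same kind of vector with PBRM1, a subunit of the PBAF chromatin remodeling complex (Caki2+PBRM1). Both lines carried the tetracycline transactivator and received doxycycline at 2 µg/ml. The study describes stable lines selected after infection, and the labels do not name separate transductions. Differences between the transduced lines and effects of PBRM1 therefore cannot be told apart.

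These proteins carry extracellular immunoglobulin domains with which cells bind each other through the same or a different molecule. L1 family members span the membrane, and their short cytoplasmic tails bind ankyrins and thereby the spectrin skeleton. Contactins are held by a lipid anchor and act with transmembrane partners. In the nervous system they guide axons, bundle fibers and organize nodes and synapses, but several are also known from the kidney, such as L1CAM in the ureteric bud and collecting duct and NCAM1 in the nephrogenic mesenchyme.

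L1CAM, CNTN6 and SDK2 are the members for which the study designed qRT-PCR primers, after it had chosen them in these libraries. The primer sequences are printed because they place the measured transcripts on the genome, with the hg19 (GRCh37) position of each primer in parentheses, and they are in lower case throughout because none spans an exon junction. Those of L1CAM lie in exons 19 and 20 of ENST00000370060 on the minus strand and enclose 133 bases of transcript. Those of CNTN6 lie in exons 2 and 3 of ENST00000446702 on the plus strand, with 92 bases, and those of SDK2 in exons 18 and 19 of ENST00000392650 on the minus strand, with 102 bases.
L1CAM forward (chrX:153132158-153132177): caaagtccaggccgtcaaca
L1CAM reverse (chrX:153131216-153131236): cagcacggcacttgagttgag
CNTN6 forward (chr3:1189708-1189728): aaactggtaattctgctgcca
CNTN6 reverse (chr3:1262403-1262422): atgacatcatgtggctcctg
SDK2 forward (chr17:71410796-71410815): cagttcatcaacggcatcaa
SDK2 reverse (chr17:71398212-71398231): gtcttgaaagttaggccggg

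Reads counted on genes numbered 7312955 in the shallowest sample and 10835355 in the deepest. The values below are normalized counts, that is, reads on a gene divided by a size factor of its sample, and not by gene length. Chi-square per degree of freedom between replicates was 1.19 to 1.34 for the pairs without Caki2+Vector A, where sampling noise gives 1. It was 3.09 and 2.84 between Caki2+Vector A and the other Caki2+Vector replicates, so that library stands apart, and values without it are given below where they changed a call. PBRM1 itself rose from 186.5 ± 7.4 to 2545 ± 127 normalized counts (SD, n = 3), and reads of the endogenous gene and of the construct cannot be told apart. Of 10 renal epithelial markers, none stayed under 10 normalized counts in every sample. CA9 and LRP2 reached 10 in only 1 sample each, of Caki2+PBRM1, and were not tested. CA9 had 1.58 ± 1.44 in Caki2+Vector and 10.3 ± 4.4 in Caki2+PBRM1, and LRP2 2.21 ± 1.97 and 9.80 ± 4.91 (SD, n = 3). PAX8, a transcription factor of the renal lineage, had 2072 ± 161 and 2094 ± 41.2 normalized counts (SD, n = 3). The sum of the 10 markers ranged from 16140 to 17000 in the Caki2+Vector samples and from 16050 to 16720 in the Caki2+PBRM1 samples, but its members moved both ways. Of 8 tested, 3 rose (37.5%), such as CDH6 (1163 ± 47.6 to 2536 ± 26.9). The keratins KRT8 (8572 ± 272 to 7569 ± 296) and KRT18 (3529 ± 203 to 2786 ± 60.8) were the 2 that fell (25.0%). Of all tested genes, 16.2% rose and 13.0% fell.

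Groups were compared with limma on log2(normalized count + 1) over 13303 genes, those that reached 10 normalized counts in 3 or more of the samples. The threshold was an adjusted p (Benjamini-Hochberg over all these genes) under 0.05. Of the 10 adhesion molecules, 8 passed the filter on low counts, and NFASC and CNTN1 did not. In Caki2+PBRM1, L1CAM, SDK1, SDK2, CNTN6, NCAM1 and ALCAM were upregulated, while NRCAM and CHL1 did not pass the threshold. This makes 6 upregulated and 0 downregulated, beside 16.2% of all tested genes upregulated and 13.0% downregulated (29.2% in either direction). CNTN6 reached 10 in Caki2+PBRM1 replicates alone, and SDK2 in these and in 1 Caki2+Vector replicate. Both passed the filter only through the group in which they were high, so the count is not support for a common direction. With at least 10 required in every sample, 4 of 6 tested adhesion molecules were upregulated. The median log2 fold change of the 8 genes, CNTN6 and SDK2 included, was 0.71, and that of all tested genes was -0.004.

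**Figure D1:**
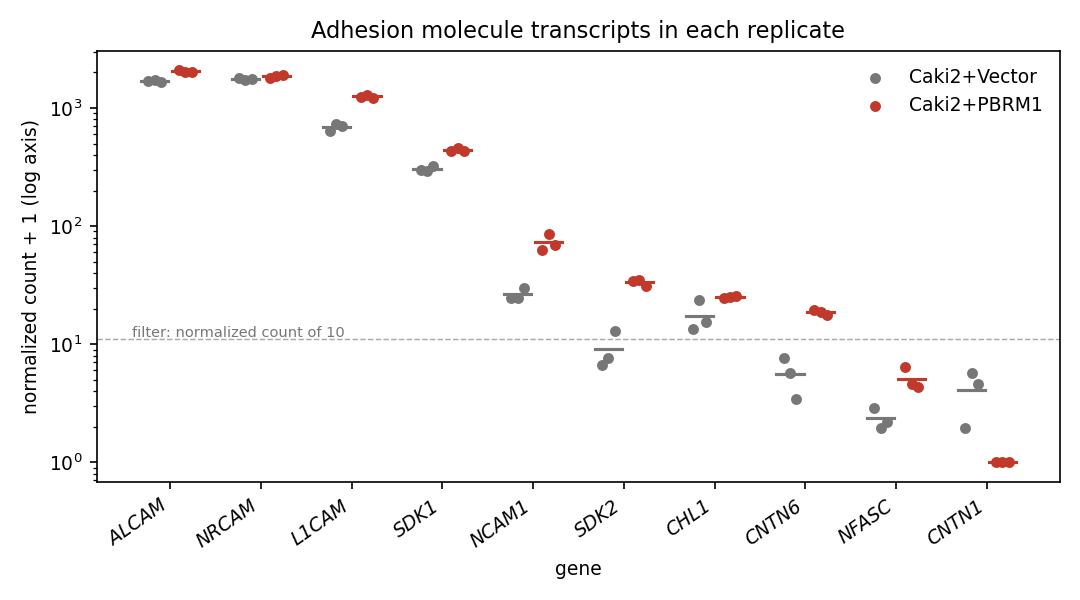
Normalized count + 1 of each adhesion molecule on a log axis, with a point for each of the 3 replicates of Caki2+Vector (grey) and Caki2+PBRM1 (red), a bar at the mean, and the filter as a dashed line. The red points lie above the grey ones for 9 genes and below them for CNTN1, and NFASC and CNTN1 lie under the filter in all 6 samples.

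Levels can be compared between genes only per length, as normalized counts per kilobase of annotated exon. On this scale ALCAM, NRCAM and L1CAM led in Caki2+Vector, with 235 ± 4.8, 219 ± 4.3 and 95.1 ± 6.7 (SD, n = 3). SDK1 followed with 24.9 ± 1.4, and the next level, that of NCAM1, was 2.00 ± 0.23. CHL1 (1.41 ± 0.47) was lower in the mean, and its own wider spread reached that of NCAM1. CNTN6 (0.832 ± 0.385) and SDK2 (0.677 ± 0.285) were within the spread of each other. In Caki2+PBRM1 the order of the leading genes was the same, with 285 ± 4.5 for ALCAM, 233 ± 6.6 for NRCAM, 172 ± 4.5 for L1CAM, 35.8 ± 1.1 for SDK1 and 5.65 ± 0.96 for NCAM1. CNTN6 (3.21 ± 0.15) and SDK2 (2.72 ± 0.17) then stood above CHL1 (2.06 ± 0.02). The exon length counts every annotated isoform, which lowers the level of a gene whose isoforms are not all made.

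Among the L1 family, L1CAM, the founding member, lies on chromosome X of GRCh37 from 153126969 to 153151627 on the minus strand (ENSG00000198910). It had 638, 734 and 702 normalized counts in Caki2+Vector A, B and C and 1248, 1287 and 1222 in Caki2+PBRM1 A, B and C. The lowest Caki2+PBRM1 value was far above the highest Caki2+Vector value. The log2 fold change was 0.86 (SE 0.05, 95% interval 0.75 to 0.97, adjusted p = 1.89e-13 from limma), which is 1.81-fold in the means. Without Caki2+Vector A it was 0.80.

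NRCAM, which has a role at nodes of Ranvier and lies on chromosome 7 from 107788068 to 108097161, was about as abundant as ALCAM. Its normalized counts were 1782, 1714 and 1751 in Caki2+Vector and 1802, 1873 and 1905 in Caki2+PBRM1. The groups did not overlap, but the distance between them was small, with a log2 fold change of 0.089 (SE 0.042, 95% interval 0.003 to 0.175, adjusted p = 0.116 from limma). Without Caki2+Vector A the adjusted p was 0.0332, at a log2 fold change of 0.10. A rise of up to 0.175 on the log2 scale lies within the interval, and the 0.86 of L1CAM does not.

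CHL1, the close homolog of L1CAM, had 12.3, 22.7 and 14.4 normalized counts in Caki2+Vector and 23.8, 24.0 and 24.3 in Caki2+PBRM1. Caki2+Vector B came close to the Caki2+PBRM1 values, which were nearly equal. The log2 fold change was 0.57 (SE 0.26, 95% interval 0.04 to 1.09, adjusted p = 0.101 from limma), and without Caki2+Vector B it was 0.81 (adjusted p = 0.0332). NFASC, the neurofascin of axon initial segments and nodes, was covered by only 4 reads in the 3 Caki2+Vector samples and 13 in the 3 Caki2+PBRM1 samples. These are 1.89, 0.945 and 1.20 normalized counts against 5.42, 3.56 and 3.36, a difference that did not pass the threshold when the filter was dropped (log2 fold change 1.12, adjusted p = 0.0757 from limma).

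The contactins were scarce. CNTN6, a ligand of Notch receptors in the developing brain, had 6.63, 4.72 and 2.40 normalized counts in Caki2+Vector and 18.4, 17.8 and 16.8 in Caki2+PBRM1. In reads these are 7, 5 and 2 against 17, 20 and 20. All Caki2+PBRM1 values were above all Caki2+Vector values, and the log2 fold change was 1.82 (SE 0.36, 95% interval 1.08 to 2.56, adjusted p = 2.69e-04 from limma). At such counts its size depends on the pseudocount, and it was 1.37 with a pseudocount of 4.

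CNTN1, the contactin of paranodal junctions (chromosome 12 from 41086241 to 41466217), was read in Caki2+Vector samples alone. It had 1, 5 and 3 reads in Caki2+Vector A, B and C, together 9 of 25831437, and 0 of 29471599 in Caki2+PBRM1. A count of 0 still allows up to 3 reads over the Caki2+PBRM1 group. Against that limit, and after division by the size factors, the 9 Caki2+Vector reads taken as exact were 3.30-fold higher. With no filter on low counts, limma gave an adjusted p of 0.00216. This p rests on 9 reads. The fit on log values does not model the counting error of so few reads, and the equal values of 0 in Caki2+PBRM1 add no spread. The limit of 3 reads covers the counting error of the 0 only. The error of the 9 reads is left out, so 3.30-fold is not a lower bound.

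Among the sidekicks, which carry fibronectin repeats beside their immunoglobulin domains and are best known from the retina, both members rose. SDK1 lies on chromosome 7 from 3340884 to 4308632. Its normalized counts were 300, 289 and 324 in Caki2+Vector and 431, 453 and 431 in Caki2+PBRM1, with no overlap. The log2 fold change was 0.53 (SE 0.07, 95% interval 0.38 to 0.67, adjusted p = 7.86e-07 from limma). SDK2, on chromosome 17 from 71330523 to 71640584, had 5.68, 6.61 and 12.0 normalized counts in Caki2+Vector and 33.6, 33.8 and 30.2 in Caki2+PBRM1. Only Caki2+Vector C reached a value of 10 among the controls, and it remained far below the Caki2+PBRM1 values. The log2 fold change was 1.94 (SE 0.28, 95% interval 1.36 to 2.53, adjusted p = 4.14e-06 from limma). The intervals of SDK2 and CNTN6 overlap, and without Caki2+Vector A the value was 1.75 for SDK2 and 2.08 for CNTN6.

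NCAM1, the neural cell adhesion molecule that binds itself across cells and is the main carrier of polysialic acid, lies on chromosome 11 from 112831997 to 113149158. It had 23.7, 23.6 and 28.8 normalized counts in Caki2+Vector and 61.7, 85.3 and 68.0 in Caki2+PBRM1. The replicates of each group were close to each other beside the gap between the groups, with a log2 fold change of 1.46 (SE 0.18, 95% interval 1.09 to 1.83, adjusted p = 2.54e-07 from limma). ALCAM, which binds itself and the T cell receptor CD6 and was the most abundant of the 10 per length, had 1679, 1721 and 1653 normalized counts in Caki2+Vector and 2084, 2033 and 2024 in Caki2+PBRM1. Its change was small but regular, with a log2 fold change of 0.28 (SE 0.04, 95% interval 0.20 to 0.37, adjusted p = 4.05e-06 from limma). For each of the 10 genes, of which 8 were tested, the groups did not overlap. The same held for 41.7% of all tested genes (22.1% with Caki2+PBRM1 higher and 19.6% with it lower). The exact two-sided permutation test gave p = 0.1 for each of the 10, the smallest that 3 against 3 allow.

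**Figure D2:**
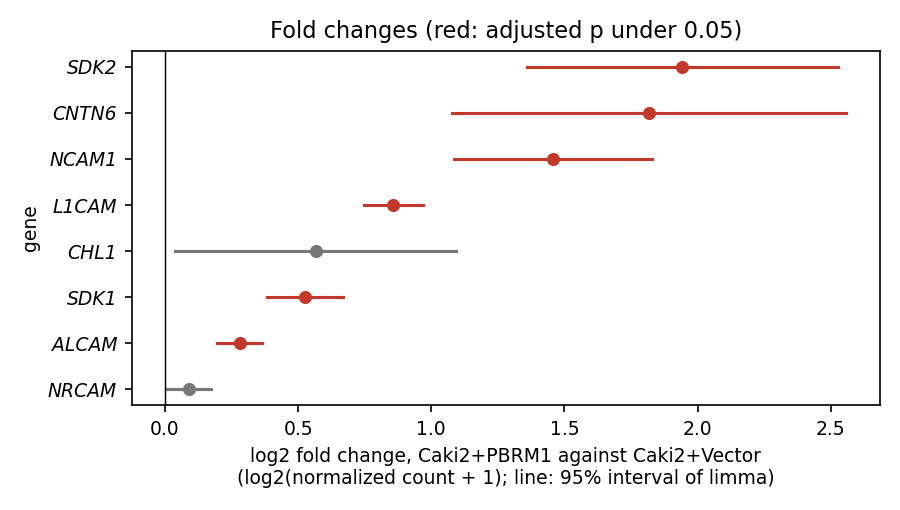
Log2 fold change of Caki2+PBRM1 against Caki2+Vector for the 8 tested adhesion molecules, with the 95% interval of limma as a line and genes past an adjusted p of 0.05 in red. Values run from 0.089 for NRCAM to 1.94 for SDK2, and NRCAM and CHL1 are grey.

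Ratios between members compare them within a sample. The ratio of L1CAM to NRCAM normalized counts averaged 0.396 ± 0.035 (SD, n = 3) in the controls and 0.674 ± 0.028 upon PBRM1 re-expression, with no overlap between the groups. The ratio of SDK2 to SDK1 was 0.0263 ± 0.0095 and 0.0742 ± 0.0039, and that of NCAM1 to ALCAM 0.0151 ± 0.0020 and 0.0351 ± 0.0063. Each of the 3 ratios gave p = 0.1 in the exact two-sided permutation test, before and after Benjamini-Hochberg adjustment over the 3, which is the smallest p possible here. Each pair sets a member with a larger log2 fold change over a member with a smaller. The ratios reuse the values of the single genes, so their separation is no further support. The summed normalized count of the 10 genes was 4488 ± 35.8 in Caki2+Vector and 5748 ± 54.7 in Caki2+PBRM1, 1.28-fold higher (exact permutation p = 0.1). Within that sum the part of L1CAM was between 14.3% and 16.2% in the Caki2+Vector samples and between 21.4% and 22.2% in the Caki2+PBRM1 samples, and the part of NRCAM between 37.9% and 40.0% and between 31.6% and 33.3%. These parts are of reads, which longer transcripts collect in greater number.

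CHL1 and CNTN6 are the outermost protein-coding genes of the short arm of chromosome 3 in GENCODE, CHL1 from 238446 to 451100 and CNTN6 from 1134342 to 1445901, both on the plus strand. Next comes CNTN4, a further contactin, from 2140497 to 3099643. CNTN4 rose from 31.6 ± 4.2 to 64.7 ± 7.4 normalized counts (SD, n = 3), or 1.01 on the log2 scale (SE 0.17, limma adjusted p = 4.20e-05). Of the genes that follow, TRNT1, CRBN and SUMF1 were tested and did not pass the threshold, with log2 fold changes of -0.22, 0.13 and 0.22 (adjusted p = 0.0968, 0.439 and 0.112), and IL5RA was at 0 in every sample. Among the nearest protein-coding neighbors of the other 8 genes, 8 of 16 were tested, of which 2 rose and 1 fell, beside 16.2% and 13.0% of all tested genes. So few neighbors are not shown to differ from that share. PDZD4, beside L1CAM, rose from 13.6 ± 5.8 to 28.3 ± 4.9 (log2 fold change 1.07, adjusted p = 0.00485), and FOXK1, beside SDK1, had a log2 fold change of 0.16 (adjusted p = 0.0164). RPL38, beside SDK2, had -0.15 (adjusted p = 0.0251).

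**Figure D3:**
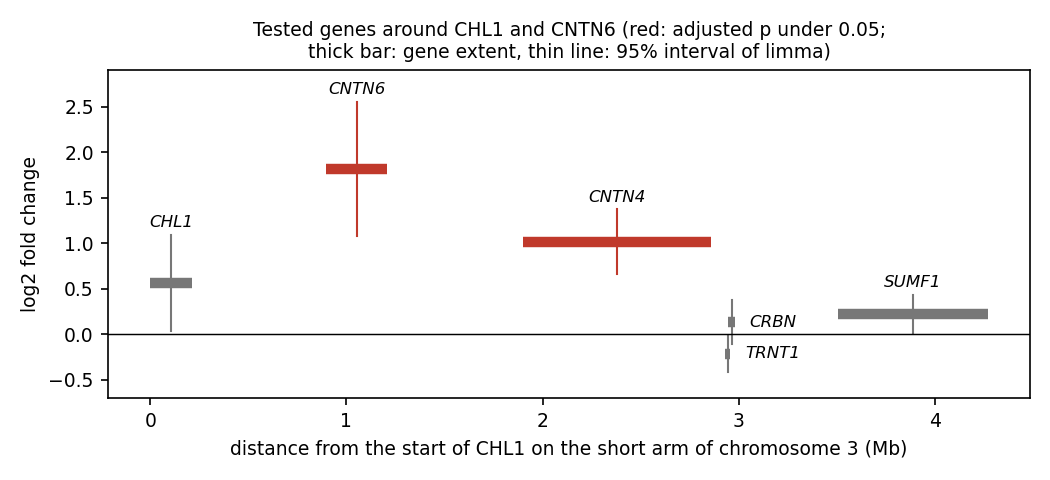
Log2 fold change of the tested genes around CHL1 and CNTN6 against distance from the start of CHL1 in Mb, with thick bars for the extent of each gene, thin lines for the 95% interval of limma, and red for an adjusted p under 0.05. CNTN6 (1.82) and CNTN4 (1.01) are red, and CHL1, TRNT1, CRBN and SUMF1 are grey.

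Of the annotated genes that overlap members, those counted here were the antisense transcripts CHL1-AS1 and NCAM1-AS1, with at most 0.947 and 0 normalized counts. ENSG00000284987, a protein-coding gene annotated across part of L1CAM, was not counted. The strand setting of the counting is not given in the sources used here. If it was unstranded, sense and antisense reads of the members cannot be told apart.

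Promoter sequences (250 bases before to 50 after the start, RefSeq on GRCh38.p14) were matched for 8 of the 10 genes. They were not matched for SDK2 and NCAM1. The first entry of L1CAM, CNTN6 and ALCAM, which rose, is printed beside that of NRCAM, which did not pass the threshold. L1CAM has 2 entries and NRCAM 3, and only the first of each was searched. Whether a printed entry lies at the outermost start of its gene or at an internal one was not checked, as gene positions here are on GRCh37. Capitals mark the motifs searched on both strands, the GC box GGGCGG, the core of hypoxia response elements in the forms ACGTG and GCGTG, the AP-1 site TGANTCA and the TATA box TATAAA. None of these motif matches overlap in the printed sequences, and each is a match of letters only.
L1CAM promoter (chrX:153875895-153876194, minus strand): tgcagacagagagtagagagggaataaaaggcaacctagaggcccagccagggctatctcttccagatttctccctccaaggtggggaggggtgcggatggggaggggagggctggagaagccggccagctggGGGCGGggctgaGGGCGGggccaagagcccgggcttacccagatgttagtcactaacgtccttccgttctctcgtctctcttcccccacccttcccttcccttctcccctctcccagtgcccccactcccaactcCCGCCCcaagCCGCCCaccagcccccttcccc
NRCAM promoter (chr7:108456387-108456686, minus strand): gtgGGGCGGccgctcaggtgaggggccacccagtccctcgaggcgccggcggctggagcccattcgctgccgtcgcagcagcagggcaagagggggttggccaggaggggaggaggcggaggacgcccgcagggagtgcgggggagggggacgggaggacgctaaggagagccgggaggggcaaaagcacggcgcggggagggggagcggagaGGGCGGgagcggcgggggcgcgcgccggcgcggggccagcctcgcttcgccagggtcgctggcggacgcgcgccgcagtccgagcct
CNTN6 promoter (chr3:1092774-1093073, plus strand): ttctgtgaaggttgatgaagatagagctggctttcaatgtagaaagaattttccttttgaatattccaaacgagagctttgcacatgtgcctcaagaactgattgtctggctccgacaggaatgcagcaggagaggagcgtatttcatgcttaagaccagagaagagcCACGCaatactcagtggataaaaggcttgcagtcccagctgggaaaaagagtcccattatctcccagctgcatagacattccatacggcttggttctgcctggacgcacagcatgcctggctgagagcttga
ALCAM promoter (chr3:105366659-105366958, plus strand): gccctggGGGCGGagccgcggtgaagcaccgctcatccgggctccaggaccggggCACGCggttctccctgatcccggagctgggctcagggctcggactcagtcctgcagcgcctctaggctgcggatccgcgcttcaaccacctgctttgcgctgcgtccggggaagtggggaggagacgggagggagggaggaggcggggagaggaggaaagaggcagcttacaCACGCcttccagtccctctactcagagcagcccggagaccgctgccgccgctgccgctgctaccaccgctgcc

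The promoter entries of the 4 matched genes that rose differed in base composition. That of SDK1, not printed, was 57.3% G and C, with an observed to expected CpG ratio of 0.204 and no motif match. It is the only entry of SDK1 (chr7:4129435-4129734, plus strand) and lies far inside the annotated extent of the gene. It therefore belongs to an internal start and not to the outermost one. That of CNTN6 was 47.3% G and C, with an observed to expected CpG ratio of 0.36, and that of ALCAM was 70.0%, with 0.709. L1CAM had 64.7% and 0.324, NRCAM had 78.0% and 0.91, and the medians of all 35116 promoters of the table were 58.7% and 0.579. L1CAM held 4 matches of the GC box, NRCAM 2 and ALCAM 1, and CNTN6 none, where 45.0% of all promoters held at least 1. GCGTG was found in CNTN6 (1 match) and ALCAM (2 matches) and in 36.5% of all promoters, and none of the 4 printed promoters held ACGTG, which 21.4% of all promoters did. The AP-1 site (7.71% of all promoters) and the TATA box (11.5%) were matched in none of them. CHL1, which also did not pass the threshold and is not printed, had 61.7% and 0.734, with 1 match of GCGTG and none of the GC box. Of the genes below the filter, NFASC held 1 match of GCGTG and 1 of the GC box, and CNTN1 held neither. Matches of GCGTG were therefore not confined to genes that rose.

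Among 49 other adhesion molecules of the immunoglobulin superfamily, 26 were tested, of which 10 rose, 2 fell and 14 did not pass the threshold. Without Caki2+Vector A, PVRL2 (nectin-2) fell as well, with a log2 fold change of -0.24 (adjusted p = 6.44e-04 from limma), where all 6 samples gave -0.16 (adjusted p = 0.0706). Without Caki2+Vector C, AMIGO3 rose by 0.70 (adjusted p = 0.0129), against 0.43 (adjusted p = 0.136). The median log2 fold change of the 26 was 0.24. Of them, 38.5% rose and 7.69% fell, beside 16.2% and 13.0% of all tested genes. After CNTN4, the largest rise was that of PTK7, a receptor pseudokinase of planar cell polarity, from 466 ± 16.3 to 904 ± 29.0 normalized counts (SD, n = 3; log2 fold change 0.96, adjusted p = 4.63e-14 from limma). MDGA1, a lipid-anchored protein that binds neuroligins, rose from 344 ± 29.8 to 539 ± 12.2 (log2 fold change 0.65). AMIGO2 had a log2 fold change of 0.51, from a high level of 3005 ± 116 normalized counts. PVRL1 (nectin-1), an adherens junction protein, and CADM1, a synaptic and epithelial adhesion molecule, each had 0.50. CNTN5, the remaining contactin that was tested, had 17.9 ± 1.7 and 25.95 ± 0.74 (log2 fold change 0.52, adjusted p = 0.0968).

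The 2 genes that fell are known from vessels and the glomerulus. ESAM, an adhesion molecule of endothelial cells and platelets, went from 57.2 ± 1.8 to 31.2 ± 2.3 normalized counts (log2 fold change -0.86, adjusted p = 3.11e-04 from limma). NPHS1, the nephrin of the podocyte slit diaphragm, named after its values were seen, went from 26.1 ± 2.4 to 8.88 ± 1.60 (log2 fold change -1.47, adjusted p = 1.28e-04). Among the untested were the neural genes OPCML, NTM, LSAMP, NEGR1, DSCAM and NCAM2, each with group means under 5. Of these, LSAMP had lower values in every Caki2+PBRM1 sample (2.06 ± 0.29 and 0.280 ± 0.485).

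**Figure D4:**
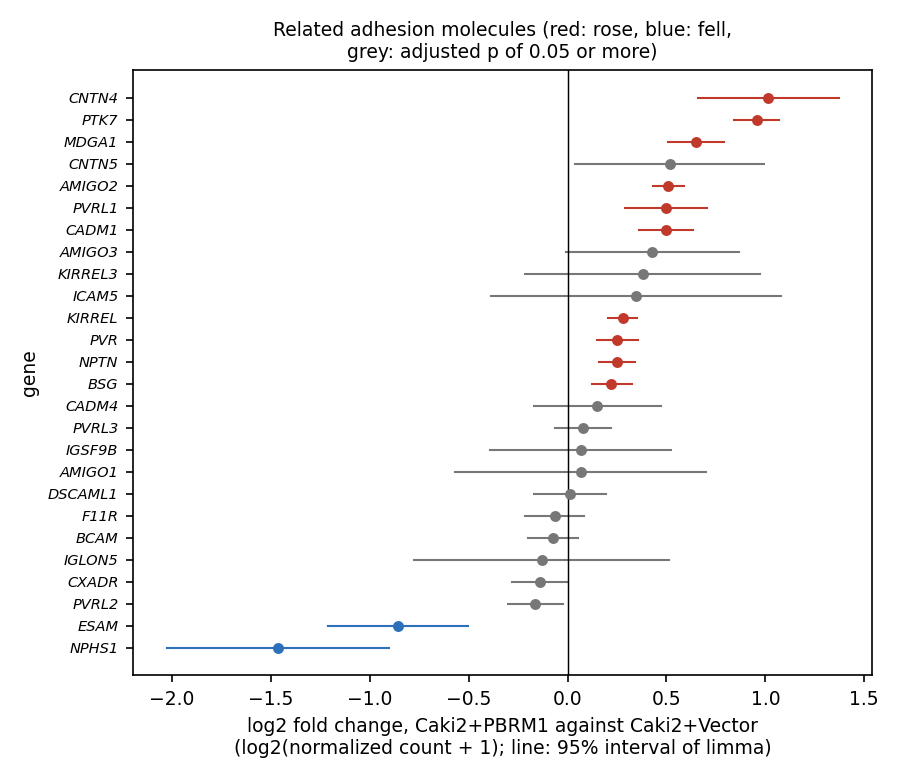
Log2 fold change of Caki2+PBRM1 against Caki2+Vector for the 26 tested relatives, with the 95% interval of limma as a line. The 10 genes that rose are red, from 0.22 (BSG) to 1.01 (CNTN4), ESAM and NPHS1 are blue, and 14 are grey.

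A further list held cytoplasmic anchors, ligands and processing enzymes of these molecules. Of its 30 genes, 18 were tested, of which 2 rose (11.1%) and 3 fell (16.7%), with a median log2 fold change of -0.008. These 27.8% in either direction are near the 29.2% of all tested genes. The ankyrins ANK2 and ANK3, which L1 family tails bind, had 0.15 (adjusted p = 0.276 from limma) and 0.26 (adjusted p = 0.0568), and the spectrins SPTAN1 and SPTBN1 had 0.025 and 0.009. BACE1, the protease that sheds CHL1, rose from 126 ± 15.8 to 179 ± 6.4 normalized counts (SD, n = 3; log2 fold change 0.51, adjusted p = 3.51e-04), and ADAM10, which sheds L1CAM, rose by 0.13 on the log2 scale (adjusted p = 0.00794). FGFR1, a receptor that L1CAM and NCAM1 can engage, went from 1403 ± 109 to 1113 ± 37.4 (log2 fold change -0.33, adjusted p = 1.25e-05). RDX, the actin linker radixin, had -0.26 (adjusted p = 7.07e-05), and CNTNAP3, a relative of the contactin partners named after its values were seen, had -0.28 with overlapping groups (adjusted p = 0.0196). The call of CNTNAP3 was lost with DESeq2 (adjusted p = 0.0707) and without Caki2+Vector B (0.0548), Caki2+Vector C (0.0875) or Caki2+PBRM1 A (0.185), and ANK3 passed without Caki2+Vector C (0.0363) or Caki2+PBRM1 C (0.0163). The ALCAM ligand CD6 was at 0 in every sample.

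Of 14 neural and glial markers, 8 stayed under 10 normalized counts in every sample, among them STMN2 and ELAVL4 at 0. Their summed level ranged from 3596 to 4015 normalized counts over the Caki2+Vector samples and from 6274 to 6416 over the Caki2+PBRM1 samples. Most of it was NEFL, a neurofilament subunit, which rose from 2939 ± 171 to 5505 ± 80.9 (SD, n = 3; log2 fold change 0.91, adjusted p = 4.09e-17 from limma) and was the only one of 5 tested markers to pass the threshold. The part of these markers in the changes of the adhesion molecules was not tested. In bulk RNA, a change in the number of cells that make a transcript and a change in its amount per cell cannot be told apart.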

How the data were processed

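RNA-Seq of 3 Caki2+Vector and 3 Caki2+PBRM1 samples was used, grouped by the sample labels. The authors removed adapters, poor reads and rRNA reads, aligned the rest to hg19 with STAR, counted reads on 25369 UCSC genes with htseq-count and normalized them with DESeq2 (versions not given in the sources used here). The deposited signal is a normalized count, and in every file 100% of the values were whole multiples, within 0.01 reads, of a single step, from which whole reads were recovered. Because the values are normalized, limma 3.58.1 (R 4.3.3, with the trend and robust options) on log2(normalized count + 1) was the main test, over genes with at least 10 in at least 3 samples. edgeR 4.0.16 (quasi-likelihood, TMM) and DESeq2 1.42.0 were run on the recovered reads as alternatives. Scripts were tested on simulated data. Exact permutation tests used scipy 1.17.1.

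The members and gene lists were chosen with earlier results of these data known. All members are named, with the listed relatives and partners that passed the threshold without overlap and averaged 50 or more in their higher group (up to 6 rises and 4 falls per list), and the protein-coding neighbors of the members (5 on each side of CHL1 and CNTN6, otherwise 1). CHL1 has no protein-coding neighbor on its outer side. Gene positions and exon lengths come from GENCODE v44 lifted to GRCh37, the build of the files. The replicates are called biological by the study, and the labels do not say whether they are separate cultures, so p-values measure the spread between these samples. Proteins, qRT-PCR and tumor data were not analysed here.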

Additional observations from a re-analysis of the deposited data

How the results depend on the processing

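L1CAM, CNTN6, SDK1, SDK2, NCAM1 and ALCAM kept their direction and stayed past the threshold in every alternative that tested them. These were pseudocounts of 0.5 and 4, no filter on low values, a mean of at least 10 over all 6 samples (chosen after seeing the data), an adjusted p under 0.01, edgeR, DESeq2, quantile normalization, the replicate block and the 6 fits without 1 replicate. A filter of at least 10 in every sample removed CNTN6 and SDK2 and left 4 upregulated genes of 6 tested. Among relatives and partners, PVRL2 was gained in 3 alternatives, ANK3 in 2 and AMIGO3 in 1, and CNTNAP3 was lost in 5. NRCAM and CHL1 passed the threshold in 1 fit each, without Caki2+Vector A and without Caki2+Vector B. Over all genes, 3886 passed, against 2521 at an adjusted p under 0.01, 2553 with DESeq2, 4004 with edgeR and 4107 with the replicate block, and 2856 to 4170 without 1 replicate. Deviations of samples with the same letter had correlations of 0.006, -0.008 and 0.014 across genes, so the letters do not pair the samples, and the replicate block left 6 adhesion molecules past the threshold. Depth limits NFASC, CNTN1 and CNTN6, whose highest read counts per sample were 5, 5 and 20. The log2 fold change of CNTN6 ran from 1.37 to 2.08 and that of SDK2 from 1.63 to 2.23 over the alternatives.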

Other observations

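Of 35 relatives and partners below the filter on low counts, 3 had higher values in every Caki2+PBRM1 sample than in any Caki2+Vector sample and 1 (LSAMP) had lower ones, where 22.1% and 19.6% of all tested genes were so separated. They were named after their values were seen. ST8SIA2, which adds polysialic acid to NCAM1, had 2.38 ± 1.42 and 5.94 ± 1.54 normalized counts (SD, n = 3). CNTNAP2, a partner of contactins at the juxtaparanode, had 0.946 ± 0.947 and 3.34 ± 1.74. NEGR1, a lipid-anchored neural adhesion molecule, had 1.75 ± 0.74 and 4.93 ± 1.95. None of them was tested, and such values are a few reads per sample.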
